A study of Mus musculus with 8 samples.

Results

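The BCL2 family decides whether a cell keeps the outer membrane of its mitochondria intact, and 10 of its genes are described here in Sca1+Lin- bone marrow cells of wild-type and Sca1-MALT1 mice. The listed genes are Bcl2, Bcl2l1, Mcl1, Bcl2l11, Bmf, Bid, Pmaip1, Bax, Bak1 and Bok. Every probe set that the platform annotation pairs with 1 of these symbols, and with no other symbol, was taken. A probe set is a group of short oligonucleotides on the array that together report 1 transcript. This gave 30 of the 45101 probe sets in the table, for 9 of the 10 genes. No probe set with a single symbol carried Bax, which was not analysed here. The 932 probe sets with several symbols were left out and not searched for members. Gene expression was measured on 1-colour Affymetrix arrays, 3 from wild-type mice (WT) and 5 from Sca1-MALT1 transgenic mice, all from bone marrow cells sorted as positive for Sca1 and negative for lineage markers. The transgene's name joins Sca1, whose regulatory sequences are active in stem and progenitor cells, with MALT1, which relays signals from antigen receptors to NF-kB, cuts other proteins as a protease, and is translocated in MALT lymphoma. The question is how the transgene's presence goes with transcript levels in this sorted fraction. Age, sex, strain, array date and the number of animals per sample are not in the labels, so each p-value is set against a spread between samples that may be technical in part.

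The family is made up of survival proteins, BH3-only proteins and pore-forming proteins. BCL2, BCL-XL (the product of Bcl2l1) and MCL1 keep cells alive by holding the other members in check. The BH3-only proteins BIM (Bcl2l11), BMF, BID and NOXA (Pmaip1) are sensors of stress that bind and block the survival proteins, and some of them activate BAX and BAK directly. BAX, BAK and, in some settings, BOK form pores in the mitochondrial membrane, which releases cytochrome c and starts the caspases. Blood stem cells and plasma cells depend on MCL1, red cell precursors and pre-B cells on BCL-XL, and naive T cells and mature B cells on BCL2, so the mixture of cells in a sorted fraction bears on which survival transcripts it holds.

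The promoters of Bcl2, Mcl1 and Bok are shown because, of the members with 1 listed start site, these had the lowest limma p-values when each gene is taken by its lowest probe set. RefSeq's GRCm38.p6 table held start sites for 9 of the 10 genes, Pmaip1 being the exception. Each sequence is the 250 bases before the start, 5′ to 3′ on the gene's strand, and capitals mark the motifs found.
Bcl2, chr1:106714291-106714540, minus strand: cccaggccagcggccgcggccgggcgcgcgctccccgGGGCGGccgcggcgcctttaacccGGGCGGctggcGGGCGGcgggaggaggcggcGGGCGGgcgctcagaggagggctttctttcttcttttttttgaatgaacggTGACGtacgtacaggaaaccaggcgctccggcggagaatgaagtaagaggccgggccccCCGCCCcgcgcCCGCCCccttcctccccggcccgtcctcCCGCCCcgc
Mcl1, chr3:95658471-95658720, plus strand: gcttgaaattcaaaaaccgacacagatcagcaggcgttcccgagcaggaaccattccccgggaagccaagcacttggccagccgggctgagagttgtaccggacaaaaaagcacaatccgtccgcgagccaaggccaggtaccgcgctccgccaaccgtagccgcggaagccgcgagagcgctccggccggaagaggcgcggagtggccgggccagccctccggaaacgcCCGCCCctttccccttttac
Bok, chr1:93685325-93685574, plus strand: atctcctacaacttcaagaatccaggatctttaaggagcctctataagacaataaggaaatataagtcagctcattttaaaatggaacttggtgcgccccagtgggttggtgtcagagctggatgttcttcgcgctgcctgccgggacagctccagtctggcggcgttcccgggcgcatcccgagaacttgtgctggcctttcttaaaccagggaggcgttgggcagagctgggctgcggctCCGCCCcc

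Both strands were searched for the GC box GGGCGG, the TATA box TATAAA, the CCAAT box CCAAT, the cyclic AMP response element core TGACG, the FOXO site TGTTTAC and the kappaB consensus of NF-kB. The window of Bcl2 held 7 GC boxes and 1 TGACG, and its GC content was 74.8%. Mcl1 and Bok held 1 GC box each, at GC contents of 64.4% and 55.2%, against a median of 52.4% over all 32851 windows. GC boxes occurred in 32.7% of all windows, TGACG in 17.8%, CCAAT in 33.8%, TATAAA in 12.4%, the FOXO site in 3.17% and the kappaB consensus in 7.25%. None of the last 4 motifs matched in these 3 windows, which says only that the letters are not there.

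No member of the family passed the test between the genotypes. Values are log2 signals, so a difference of 1 is a doubling, and differences are Sca1-MALT1 minus WT with their standard error (SE) from limma. A gene passed when its limma p-value, adjusted by Benjamini-Hochberg over all 18193 genes, was below 0.05. With the brightest probe set of each gene, 0 of 9 members passed, against 0.0879% of all genes, and adjusted p-values by limma ran from 0.346 to 0.985. Bok alone had an unadjusted limma p under 0.05, 1 of 9 against 10.2% of all genes. Of the 9 genes 3 were higher and 6 lower in Sca1-MALT1, where 50.7% of all genes were higher, with a median difference of -0.15 against 0.004 over all genes, and the groups overlapped in each, against 7.13% of all genes with no overlap.

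The probe sets of a gene did not always move together, and the family looked different when all 30 were read. In the fit over 45037 probe sets, 0 of 30 passed by limma, against 0.06% of all probe sets, and the lowest adjusted p was 0.369. An unadjusted p under 0.05 was found in 9 of 30, 6 higher and 3 lower, against 9.47% of all probe sets. The groups did not overlap in 3 of 30, which are 2 Bcl2 probe sets and 1 Mcl1 probe set, against 6.83% of all. Bcl2 alone supplied 4 of the 9 low p-values, and probe sets of 1 gene are not independent of one another. In 20 of 30 the difference was above 0, where 48.4% of all probe sets had a positive difference. The 95% intervals reached between 0.22 and 1.87 log2 units to either side, so for the noisiest members even a doubling lies within the interval.

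**Figure D1:**
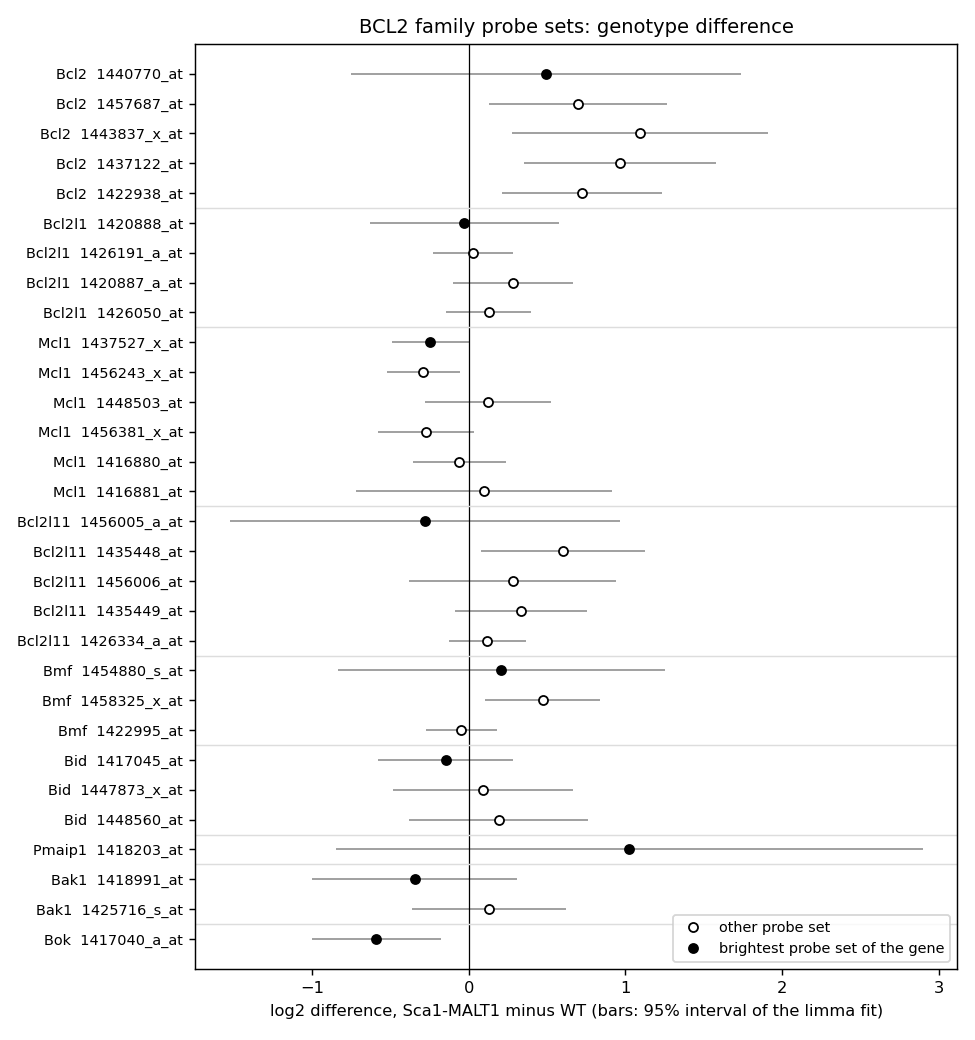
Log2 difference between Sca1-MALT1 and WT for each of the 30 probe sets (rows, grouped by gene), with the 95% interval of the limma fit as a bar. Filled points are the brightest probe set of each gene. All 5 Bcl2 points lie above 0, from 0.49 to 1.09, while the 6 Mcl1 points lie between -0.29 and 0.13.

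Markers of several cell types differed between the groups on the same arrays, and fewer cells of a type and less RNA per cell cannot be told apart in such bulk samples. The progenitor markers Kit, Cd34 and Flt3 averaged 10.11, 10.63 and 10.10 in WT, all above the array medians of 6.40 to 6.48. Genes of lineage-positive cells were above them too, with the neutrophil gene S100a8 at 14.74 and the B cell gene Ms4a1 at 12.55. Ly6a, which encodes Sca1, was not analysed here. Plasma cell markers were higher in Sca1-MALT1 in 9 of 9 genes, of which Jchain passed (2.58, adjusted p = 0.0163 by limma; the call was lost in 4 of 8 fits with 1 array left out, namely WT replicate 3 or Sca1-MALT1 replicate 1, 3 or 5, with adjusted p up to 0.0718). Their mean signal ran from 9.32 to 9.44 in WT and from 11.18 to 12.94 in Sca1-MALT1. Pro-B and pre-B cell markers were lower in 8 of 9, of which Rag1, Rag2, Vpreb1 and Igll1 passed, with means of 9.62 to 10.70 in WT and 7.05 to 7.80 in Sca1-MALT1. Rag2 passed in 1 of 8 such fits, the one without WT replicate 2, with adjusted p up to 0.131 in the others. T cell markers were higher in 7 of 7 with none past the test. Their mean was 9.32 to 9.67 in WT, 10.40 to 10.79 in 4 Sca1-MALT1 arrays and 9.15 in replicate 4. Neutrophil markers were lower in 7 of 8 with none past the test and a median of -0.88. Their mean was 12.26 to 12.81 in WT and 12.52, 11.72, 10.54, 14.00 and 10.97 in Sca1-MALT1 replicates 1 to 5, so that replicate 4 lay above all WT arrays, replicates 2, 3 and 5 below them and replicate 1 within their range. Immediate early genes, which respond to handling within minutes, were higher in 7 of 7 with none past the test, at means of 8.38 to 9.14 in WT and 9.23 to 10.43 in Sca1-MALT1. The part of these shifts in the BCL2 family values was not tested.

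The remaining marker lists had medians of -1.24 for stem and progenitor cells, -1.02 for mature B cells, 0.17 for NK cells, -0.67 for monocytes, macrophages and dendritic cells, 0.78 for erythroid cells, -0.04 for megakaryocytes, -0.98 for endothelial cells and 0.73 for stromal cells, with none of their genes past the test. The mean of the endothelial list was 7.18 to 8.18 in WT and 6.45 to 6.92 in Sca1-MALT1. That of the erythroid list was 8.68 to 8.94 in WT and 9.29 to 10.20 in Sca1-MALT1. In the means of the other lists named here the groups overlapped. RNA quality, measured as the 3′ minus 5′ signal of the Gapdh control probe sets, was 2.70 to 2.92 in WT and 2.25 to 3.20 in Sca1-MALT1. The same measure for beta-actin was 1.45 to 2.14 in WT and 1.25 to 2.49 in Sca1-MALT1, with the highest value of both in replicate 5. Xist, which is transcribed from the inactive X chromosome of female cells, read 13.09 and 12.46 in Sca1-MALT1 replicates 2 and 4 and 6.20 to 6.58 on the other 6 arrays, all 3 WT arrays among them. With a term for sex read from Xist, the difference in the brightest probe set of Bak1 was -0.68 in place of -0.35 (adjusted p = 0.215 by limma), that of Pmaip1 1.58 in place of 1.02 (adjusted p = 0.486 by limma) and that of Bid -0.24 in place of -0.15 (adjusted p = 0.682 by limma). In the same fit over all genes Bmf stood at 0.49 in place of 0.21 and Bcl2l11 at -0.035 in place of -0.28. No WT array had a high Xist signal, so the difference in that fit is Sca1-MALT1 without replicates 2 and 4 against WT. Sex and other traits of those arrays cannot be told apart in it.

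**Figure D2:**
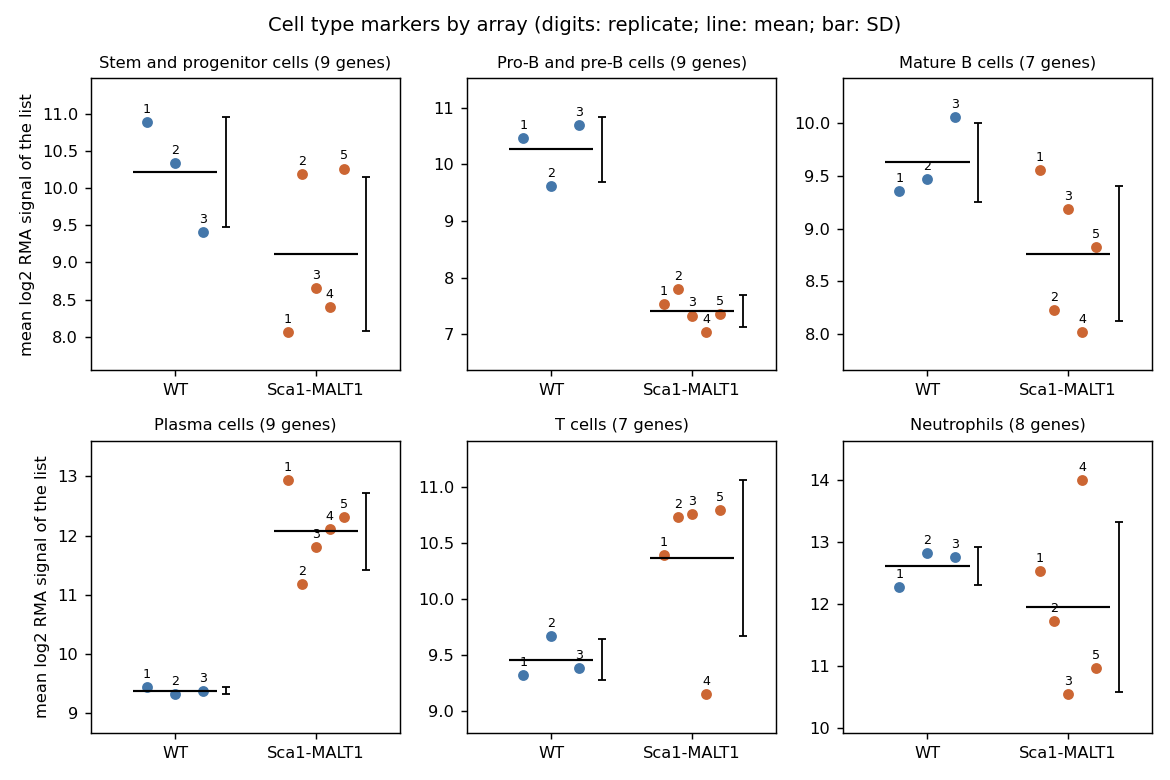
Mean log2 signal of 6 marker lists on each array (digits are replicate numbers, the line is the group mean and the bar 1 SD). Plasma cell markers lie between 11.18 and 12.94 in Sca1-MALT1, above WT at 9.32 to 9.44, pro-B and pre-B markers lie below WT, and T cell markers lie above WT in all Sca1-MALT1 arrays but replicate 4.

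Bcl2, the founding survival gene of the family, was higher in Sca1-MALT1 in each of its 5 probe sets, though none passed the test. The sign held under all 13 alternative settings of the probe set fit. These settings reuse the same arrays, and the filter on mean signal cannot change a difference. Probe set 1437122_at read 8.44, 8.50 and 8.58 in the WT arrays and 9.80, 9.62, 10.02, 8.91 and 8.99 in Sca1-MALT1 replicates 1 to 5. All 5 Sca1-MALT1 arrays lay above all 3 WT arrays, a difference of 0.96 (SE 0.27, 95% interval 0.35 to 1.58, adjusted p = 0.369 by limma). Probe set 1443837_x_at is of the _x_at type, whose oligonucleotides can also match other sequences. It read 10.10, 10.03 and 10.07 in WT and 10.72, 11.72, 12.06, 10.54 and 10.75 in Sca1-MALT1. Here too the groups did not overlap, and the WT arrays lay close together (SD 0.04, n = 3) while the Sca1-MALT1 arrays spread widely (SD 0.68, n = 5), for a difference of 1.09 (SE 0.36, adjusted p = 0.427 by limma).

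Probe sets 1457687_at and 1422938_at of Bcl2 differed by 0.70 (SE 0.25, adjusted p = 0.450 by limma) and 0.72 (SE 0.22, adjusted p = 0.401 by limma), with 1 Sca1-MALT1 array inside the WT range in each. In 1457687_at that array was replicate 4, at 10.31 against 11.03 to 11.32 in the other 4 and 10.09 to 10.63 in WT. Replicate 4 also had a T cell marker mean of 9.15, below WT, the highest neutrophil marker mean, 14.00, and a high Xist signal, 12.46. Replicate 5 had the highest T cell marker mean, 10.79. Its mean over the Bcl2 probe sets was 9.78, against 9.73 in replicate 4. A link between these markers and Bcl2 was not tested. In 1422938_at the array inside the WT range was replicate 5, at 7.80, with WT at 7.33 to 7.86. The brightest probe set, 1440770_at, gave the smallest difference of the 5, 0.49 (SE 0.54, 95% interval -0.75 to 1.74, adjusted p = 0.811 by limma). It read 11.49, 10.77 and 10.61 in WT and 11.33, 12.29, 12.59, 10.87 and 10.16 in Sca1-MALT1, so that replicates 2 and 3 stood above all WT arrays and replicate 5 below them. With 1 array left out the difference ran from 0.21, without Sca1-MALT1 replicate 3, to 0.81, without replicate 5. It was 0.28 without Sca1-MALT1 replicate 2, 0.32 without WT replicate 3 and 0.76 without WT replicate 1. With the replicate number as a block it was 1.11. Sca1-MALT1 replicates 4 and 5 have no same-numbered WT array and do not enter that value. The mean of the 5 probe sets ran from 9.38 to 9.56 in WT and from 9.73 to 10.91 in Sca1-MALT1. Taking that mean in place of the brightest probe set raised the difference to 0.79 (adjusted p = 0.394 by limma).

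**Figure D3:**
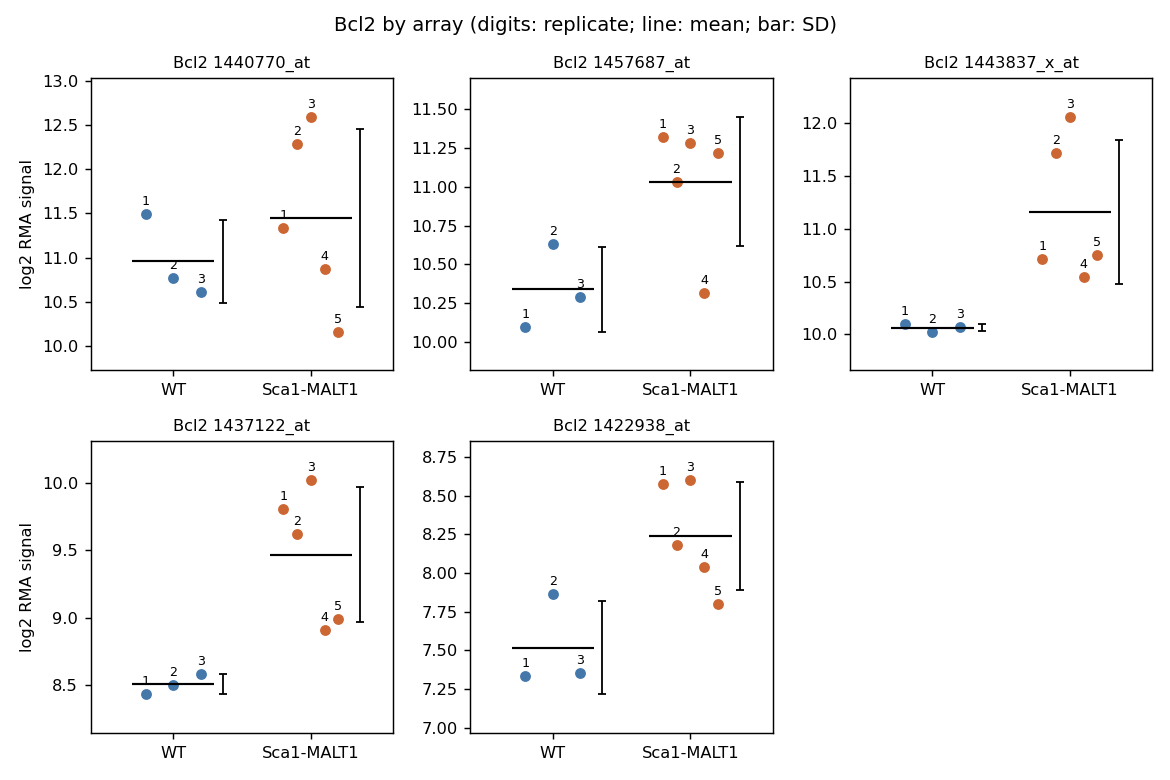
Log2 signal of the 5 Bcl2 probe sets on each array (digits are replicate numbers, the line is the group mean and the bar 1 SD). Sca1-MALT1 replicates 1, 2 and 3 lie above WT in 4 probe sets, and in 1440770_at replicate 1 lies within the WT range. Replicate 4 lies near WT in 1457687_at.

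Mcl1, a short-lived survival protein, differed little. Its 3 probe sets of the _x_at type, whose oligonucleotides can also match other sequences, were all lower in Sca1-MALT1. Probe set 1456243_x_at read 13.16, 13.35 and 13.37 in WT and 13.07, 12.95, 12.95, 12.92 and 13.12 in Sca1-MALT1. No array of one group reached the other, although the gap was small, a difference of -0.29 (SE 0.10, 95% interval -0.52 to -0.06, adjusted p = 0.445 by limma). Probe sets 1437527_x_at and 1456381_x_at differed by -0.25 (SE 0.11) and -0.28 (SE 0.13), with overlap between the groups and adjusted limma p-values of 0.528 and 0.570.

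The 3 Mcl1 probe sets of the plain _at type, which are designed to match 1 transcript, differed by 0.13 (SE 0.18), -0.06 (SE 0.13) and 0.10 (SE 0.36), with adjusted limma p-values of 0.853 to 0.951. Mcl1 is thus represented by probe sets that disagree in sign, and the direction depends on which is read. WT replicate 1 was the lowest WT array in all 6 Mcl1 probe sets. Without it all 6 differences were below 0, from -0.36 to -0.076, with none past the test. The 95% interval of 1416880_at, from -0.35 to 0.24, leaves out a change of 1 log2 unit in either direction.

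**Figure D4:**
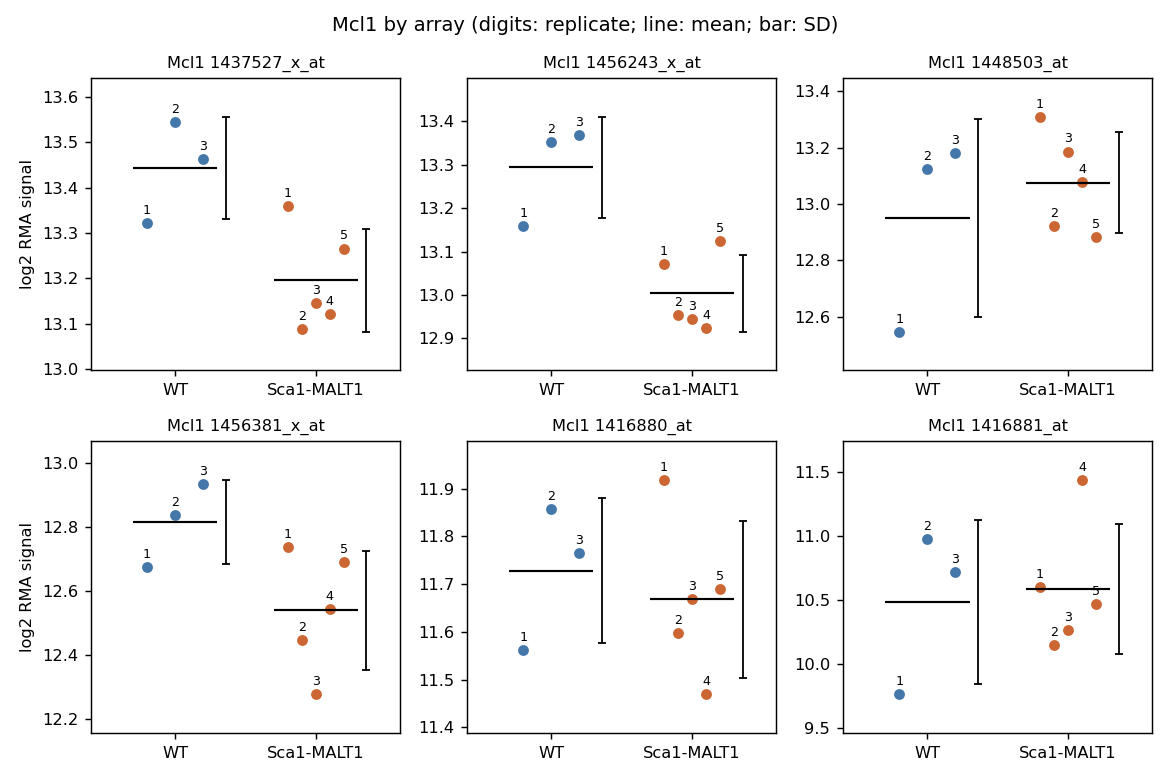
Log2 signal of the 6 Mcl1 probe sets on each array (digits are replicate numbers, the line is the group mean and the bar 1 SD); each panel has its own vertical scale. The WT arrays lie above the Sca1-MALT1 arrays in 1456243_x_at, while the groups overlap in the other 5.

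Bcl2l1, which encodes BCL-XL, read 10.15, 10.36 and 10.38 in WT and 10.09, 9.70, 10.71, 10.84 and 10.01 in Sca1-MALT1 in its brightest probe set, 1420888_at. The Sca1-MALT1 arrays lay on both sides of WT, with replicates 3 and 4 above and the others below, and the difference was -0.03 (SE 0.26, 95% interval -0.63 to 0.57, adjusted p = 0.984 by limma). The remaining 3 probe sets had means of 4.26 to 5.45 in both groups, below the array medians, and differed by 0.03, 0.13 and 0.28. RMA gives no detection call, so low signals were not read as absence.

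Among the BH3-only genes, Bcl2l11, whose product BIM is the main killer of lymphocytes deprived of cytokines, was reported differently by its 2 bright probe sets. Probe set 1435448_at read 10.11, 9.79 and 9.79 in WT and 10.50, 10.16, 11.01, 10.06 and 10.74 in Sca1-MALT1. Replicate 4 alone fell within the WT range, and the difference was 0.60 (SE 0.23, 95% interval 0.08 to 1.12, adjusted p = 0.472 by limma). Probe set 1456005_a_at read 11.08, 10.21 and 10.42 in WT and 11.62, 10.80, 10.41, 9.06 and 9.59 in Sca1-MALT1. Its Sca1-MALT1 arrays ran from the highest to the lowest of all 8, with a difference of -0.28 (SE 0.54, adjusted p = 0.902 by limma). The other 3 probe sets, with group means of 4.99 to 7.03, differed by 0.12, 0.28 and 0.33, and their adjusted limma p-values were 0.621 to 0.796.

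Bmf, a BH3-only gene whose product is held on the cytoskeleton until the cell is stressed, spread widely within both groups. Probe set 1454880_s_at read 8.47, 8.36 and 9.51 in WT and 10.0001, 7.93, 8.70, 9.20 and 9.12 in Sca1-MALT1, a difference of 0.21 (SE 0.45, adjusted p = 0.914 by limma). The dimmer 1458325_x_at, whose oligonucleotides can also match other sequences, differed by 0.47 (SE 0.16, adjusted p = 0.435 by limma). In that probe set 4 of the 5 Sca1-MALT1 arrays, at 7.12 to 7.33, lay above WT at 6.52 to 7.01, and replicate 4 did not, at 6.86. The third, 1422995_at, had group means of 4.76 and 4.71.

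Pmaip1 encodes NOXA, which binds MCL1 and marks it for destruction, and it was the most variable of the 9 genes. Its single probe set read 5.02, 5.91 and 7.80 in WT and 8.75, 5.31, 7.16, 7.57 and 7.55 in Sca1-MALT1. WT replicate 3 read higher than 4 of the 5 Sca1-MALT1 arrays, and Sca1-MALT1 replicate 2 lower than 2 of the 3 WT arrays. The difference of 1.02 (SE 0.82, 95% interval -0.85 to 2.90, adjusted p = 0.741 by limma) was smaller than the within-group SD of 1.31. That SD lay at percentile 99.1 of all 18193 genes, against 96.0 for both Bcl2 and Bcl2l11, 93.3 for Bmf and 9.32 for Mcl1, each in its brightest probe set. The Pmaip1 difference was 0.41 without WT replicate 1, 1.80 without WT replicate 3 and 0.65 without Sca1-MALT1 replicate 1.

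Bid links the death receptors to the mitochondria once caspase 8 has cut it. It read 8.83, 9.06 and 8.47 in WT and 8.72, 8.64, 8.21, 8.92 and 8.71 in Sca1-MALT1 in its brightest probe set, 1417045_at. The groups overlapped over most of their range, with a difference of -0.15 (SE 0.19, 95% interval -0.58 to 0.28, adjusted p = 0.838 by limma). It was -0.012 without WT replicate 2, -0.30 without WT replicate 3 and -0.040 without Sca1-MALT1 replicate 3. The other probe sets differed by 0.09 and 0.19, and in both of them Sca1-MALT1 replicate 4 was the highest of all 8 arrays, at 7.24 and 6.90.

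**Figure D5:**
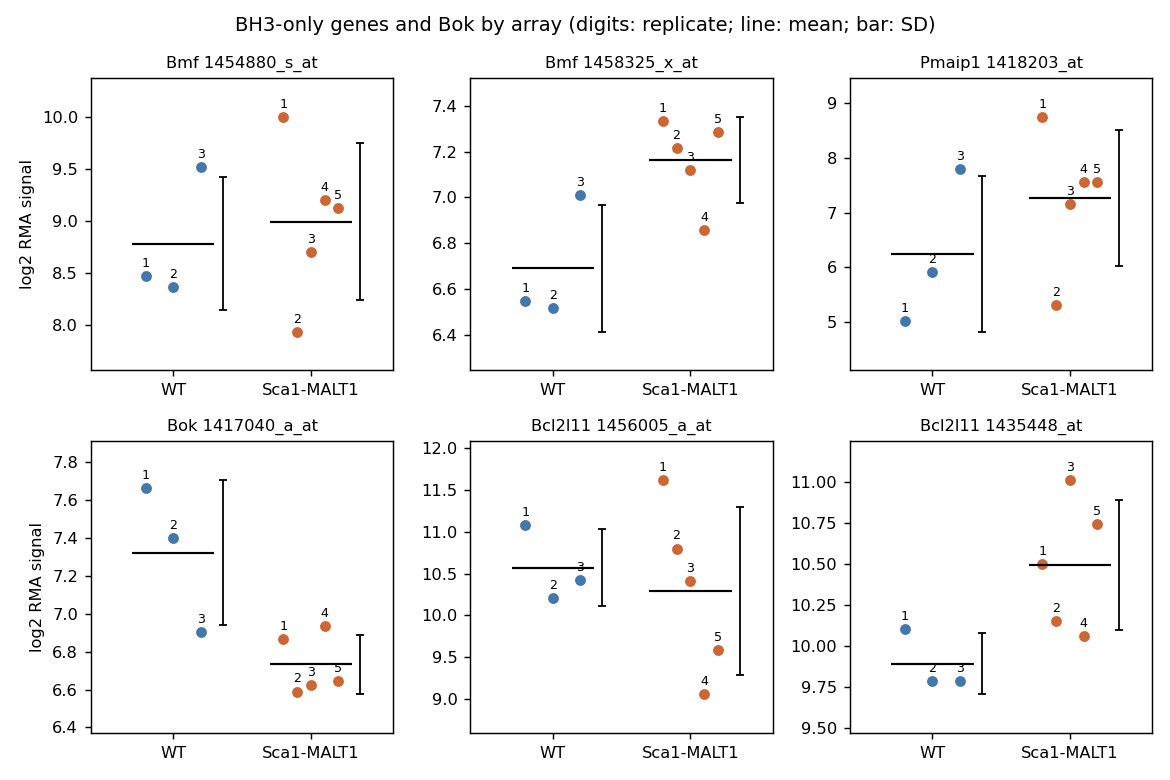
Log2 signal of Bmf, Pmaip1, Bok and the 2 bright Bcl2l11 probe sets on each array (digits are replicate numbers, the line is the group mean and the bar 1 SD); each panel has its own vertical scale. Pmaip1 spans from 5.02 to 7.80 in WT alone. In Bok, WT replicate 3 lies among the Sca1-MALT1 arrays.

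Of the pore-forming genes, Bok was lower in Sca1-MALT1. In the fit on brightest probe sets, though not in that over all probe sets, Bok had the lowest adjusted p-value of the 9 genes. Its single probe set, 1417040_a_at, read 7.66, 7.40 and 6.90 in WT and 6.87, 6.59, 6.62, 6.94 and 6.65 in Sca1-MALT1. Only replicate 4, at 6.94, exceeded a WT array, and the difference was -0.59 (SE 0.18, 95% interval -1.002 to -0.18, adjusted p by limma = 0.398 over all probe sets and 0.346 over all genes). Both group means, 7.32 ± 0.38 (SD, n = 3) in WT and 6.73 ± 0.16 (SD, n = 5) in Sca1-MALT1, lay above the array medians of 6.40 to 6.48. Without WT replicate 1 the difference was -0.42, and without WT replicate 3 it was -0.80.

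Bak1, the other pore-forming gene measured, read 6.52, 6.71 and 6.69 in WT and 6.12, 6.45, 5.91, 7.15 and 5.84 in Sca1-MALT1. These are values of its brightest probe set, 1418991_at, whose mean over all arrays, 6.42, lay just below the median of all values, 6.46. Replicate 4 was the highest of all arrays and the other 4 lay below WT, a difference of -0.35 (SE 0.29, adjusted p = 0.750 by limma). Without replicate 4 the difference was -0.56 (adjusted p = 0.324 by limma). The dimmer Bak1 probe set, 1425716_s_at, had a mean of 5.02 over all arrays and differed by 0.13 (SE 0.22).

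The rest of the family was measured in 11 of 16 listed genes. Of these, 0 passed by limma, against 0.0879% of all genes. An unadjusted p under 0.05 was found in 1, against 10.2% of all genes. Genes named from this list and the later ones were picked for the lowest p in their list. The median difference was -0.01. Bcl2l2, which encodes the survival protein BCL-W, did not overlap between the groups, as was the case for 7.13% of all genes. It read 7.72 ± 0.24 (SD, n = 3) in WT and 8.24 ± 0.24 (SD, n = 5) in Sca1-MALT1, a difference of 0.52 (SE 0.17, adjusted p = 0.377 by limma). Bbc3, the gene of the BH3-only protein PUMA, differed by 0.45 (SE 0.21, adjusted p = 0.509 by limma). Bcl2l12 and Bad, the latter a BH3-only gene under growth factor control, differed by -0.25 and -0.19.

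Downstream of the family, 0 of 15 measured genes of the apoptosome, caspases and their inhibitors passed by limma, against 0.0879% of all genes. An unadjusted p under 0.05 was found in 0, against 10.2% of all genes, and the median was -0.08. Birc2, a ubiquitin ligase of the inhibitor of apoptosis family, differed by 0.43 (SE 0.20) and Apaf1, the scaffold of the apoptosome, by -0.42 (SE 0.29). Cycs, the cytochrome c gene, differed by -0.33 and the executioner caspase gene Casp6 by -0.19.

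Upstream, 0 of 9 measured genes of the death receptors and their adaptors passed by limma, against 0.0879% of all genes. An unadjusted p under 0.05 was found in 1, against 10.2% of all genes, and the median was 0.18. Fasl, the ligand by which cytotoxic lymphocytes kill, was above WT in all 5 Sca1-MALT1 arrays, where 7.13% of all genes did not overlap. Fasl differed by 2.26 (SE 0.65, adjusted p = 0.320 by limma). Its receptor Fas differed by 0.50, Tnfrsf10b, which encodes the mouse TRAIL receptor, by 0.24 and the adaptor Fadd by 0.23. Cytokine and survival receptors had a median of -0.59 over 11 genes. Of these, 0 were past the test by limma, against 0.0879% of all genes, and 3 had an unadjusted p under 0.05, against 10.2%. Tnfrsf17, which encodes the plasma cell receptor BCMA, differed by 3.37 (SE 0.67, adjusted p = 0.192 by limma), from a WT mean of 5.21 below the array medians. The progenitor receptor Flt3 differed by -1.59, Cd40 by -0.91 and Il6ra by -0.90.

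Among 18 measured regulators of the family's transcripts and proteins, 0 passed by limma, against 0.0879% of all genes. An unadjusted p under 0.05 was found in 2, against 10.2% of all genes, and the median was 0.08. Rela, the NF-kB subunit p65, was above WT in all Sca1-MALT1 arrays (difference 0.44, SE 0.14, adjusted p = 0.364 by limma), and Dynll1, a dynein light chain that holds BIM on microtubules, was below WT in all of them (-0.42, SE 0.14, adjusted p = 0.382 by limma). The groups did not overlap in 7.13% of all genes. Zfp36 differed by 0.81 and Dynll2, the light chain that holds BMF, by 0.40. Of 13 mitochondrial and endoplasmic reticulum partners, 0 passed by limma and 1 had an unadjusted p under 0.05, against 0.0879% and 10.2% of all genes. Their median was -0.02. Itpr3, a calcium release channel of the endoplasmic reticulum that BCL2 binds, differed by 0.51 (SE 0.14, adjusted p = 0.320 by limma), the cochaperone gene Bag3 by 0.45, the autophagy gene Becn1, whose product BCL2 also binds, by 0.19 and Itpr2 by 0.36.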

How the data were processed

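Total RNA of sorted cells was amplified in vitro with T7 polymerase and hybridised to Affymetrix arrays, per the labels' protocols. The authors deposited log2 values, 1 for each probe set on each array, from RMA, per the submitters' processing notes. No source used here names its version or software. The scale was taken from the values, which lie between 2.73 and 15.41. The number of arrays limits the precision.

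The deposited log2 values were not normalized again. Control probe sets (64 of 45101) were dropped. The platform annotation gave 1 symbol for 34945 probe sets, several for 932 and none for 9160, and identifiers in a RefSeq table of GRCm38.p6 brought the symbols of 18031 of 18193 genes up to date. Genotypes were compared with limma 3.58.1 in R 4.3.3 (lmFit, eBayes, genotype the only term), once on each gene's brightest probe set (highest mean over 8 arrays) and once on all 45037 probe sets. Tests are two-sided, with Benjamini-Hochberg adjustment over each whole table. The fit was also run on simulated data with known changes, and the share recovered is not reported here.

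Named genes were all members, and of each of 6 further gene lists up to 4 with the lowest p. The alternatives were other normalizations, filters, probe set choices, fit settings, the replicate block, a term for sex read from Xist, and each array left out. Same-numbered arrays of the groups did not deviate together (correlations of -0.22, -0.04 and 0.01), so the numbers were not taken as pairs. The members and lists were chosen with earlier results of these data known.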

Additional observations from a re-analysis of the deposited data

Results flagged for a closer look

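In 3 of the 43 sets of 5 Sca1-MALT1 values examined (30 probe sets and 13 marker lists), 1 array stood apart from the other 4 by more than Dixon's limit, and chance alone flags about 1 in 20. Each time it was replicate 4. Bcl2 probe set 1457687_at read 10.31 there against 11.03 to 11.32 in the others. Bid probe set 1448560_at read 6.90 against 5.91 to 6.13. The mean of the T cell markers was 9.15 against 10.40 to 10.79. Without that array the Bcl2 difference in 1457687_at was 0.88.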

How the results depend on the processing

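No member passed under any alternative: the count of members or member probe sets past the threshold was 0 in all 30 alternative counts by limma (17 settings at the gene level, 13 at the probe set level, of which 3 were chosen after seeing the data), and the lowest adjusted p was 0.154. Over all genes, 16 passed in the reported fit, 28 with array quality weights, 29 with a term for sex, 0 with the replicate block, and 8 to 38 with 1 array left out. The labels do not say whether the replicate numbers mark pairs. Replicate numbers 4 and 5 occur only in Sca1-MALT1, so with the block those arrays do not enter the genotype difference. The block also uses up degrees of freedom, and why the count fell with it was not tested. The count of members higher in Sca1-MALT1 was 3 of 9 with the brightest probe set, 6 with the average over its probe sets, 5 with the most variable one, and 3 to 4 with 1 array left out.

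Of 534 member values under an alternative, 38 changed sign. No member value was called in any fit, so no call could be lost. Values at the gene level and at the probe set level were both counted, so a brightest probe set can enter at both. The cause of the sign changes was not tested beyond what each setting does. With the mean of the probe sets, Bcl2l1 stood at 0.10, Bcl2l11 at 0.21 and Bid at 0.045. With the most variable probe set, Mcl1 stood at 0.10 and Bid at 0.19. With the replicate block, Bcl2l11 (1456005_a_at) stood at 0.37, Mcl1 1416881_at at -0.15, and Bid 1447873_x_at and 1448560_at at -0.18 and -0.030. With the term for sex, Mcl1 1416880_at and 1416881_at stood at 0.030 and -0.042 and Bid 1447873_x_at at -0.079. With 1 array left out, Bcl2l1 (1420888_at) ran from -0.17 to 0.11, Bcl2l11 (1456005_a_at) from -0.61 to 0.030, Bmf (1454880_s_at) from -0.044 to 0.57, and Bcl2l1 1426191_a_at from -0.032 to 0.099. Mcl1 1448503_at ran from -0.076 to 0.24, 1416880_at from -0.14 to 0.0053, and 1416881_at from -0.26 to 0.35. Bmf 1422995_at ran from -0.097 to 0.018, Bid 1447873_x_at from -0.064 to 0.25, and Bak1 1425716_s_at from -0.014 to 0.39.

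Limits: 8 of 30 member probe sets had a mean signal below the median of all values. That median is not a detection limit. RMA gives no detection call, so signal and background were not told apart at any level.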
